A study of Mus musculus with 15 samples.

Results

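Plat, Hprt, Tex19.1, Cdc6, Orc6 and Il7 are 6 genes whose transcripts mouse oocytes store and draw on when they mature. They were chosen by name, with earlier results of these data known. Every probe set that the platform annotation assigned to exactly 1 of their symbols was taken. This gave 8 of the 45101 probe sets on the array, with 2 each for Plat and Il7 and 1 for each of the other genes. The series holds 15 Affymetrix arrays, each hybridized with RNA from a pool of 150 oocytes of B6D2F1 females, in 6 groups. Adults of 7 to 8 weeks gave oocytes at the germinal vesicle stage (GV, arrested in meiotic prophase, n = 2), oocytes matured in vivo to metaphase II (MII, n = 3) and oocytes matured in vitro to MII (n = 2). Peripubertal females at day 26 (d26) gave MII oocytes matured in vivo (n = 2) and in vitro (n = 3), and prepubertal females at day 20 (d20) gave MII oocytes matured in vitro (n = 3). Per the labels, immature oocytes were taken 48 h after PMSG, in vitro maturation lasted 16 h in Gmat medium, in vivo maturation was triggered with hCG, and hyaluronidase removed the cumulus cells in every group. The labels do not say whether the pools of a group came from separate animals, so a p-value here rests on the spread among pools, part or all of which may be technical.

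A fully grown oocyte transcribes little and relies on messages made earlier. Many of these are kept dormant with a short poly(A) tail, held by proteins such as Cpeb1 that bind elements in the 3′ untranslated region. When meiosis resumes, the tail of a recruited message is lengthened in the cytoplasm and the message is translated, while many other maternal messages are shortened and degraded. The RNA here was captured by its poly(A) tail before amplification. A higher value at MII can therefore mean more molecules or longer tails, and the arrays cannot tell these apart.

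Plat encodes tissue plasminogen activator, a secreted serine protease, and Hprt the enzyme that salvages hypoxanthine and guanine. Both messages are long-known examples of dormant maternal mRNA in the mouse oocyte. Cdc6 and Orc6 belong to the machinery that licenses replication origins by loading the MCM helicase. Tex19.1 is a mammal-specific germ-cell protein that restrains retrotransposons and binds the ubiquitin ligase Ubr2. Il7 is a secreted cytokine best known for lymphocyte development.

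Arrays differed in brightness, and this bears on every comparison below. The 4 dimmest had 2615 to 3042 probe sets over a deposited intensity of 200 and are called dim below, whereas the other 11 had 4882 to 9819. The dim arrays were replicate 1 of the adult in vivo group, replicate 2 of the adult in vitro group, and replicates 2 and 3 of the d26 in vitro group. Both GV arrays were the brightest of the 15. Levels are therefore given as log2 intensities after quantile normalization, which gives all arrays the same distribution, and the deposited intensities are given beside them. A step of 1 on the log2 scale is a doubling. The probe sets tested were the 22519 with a mean in the upper 50%, at or above 3.07. Of the 8 probe sets of the 6 genes, 7 were tested, and the one left out was Plat 1458553_at, whose mean was 1.95. In the text, a difference is called where limma's Benjamini-Hochberg adjusted p over all probe sets tested was below 0.05.

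Adult oocytes at MII were first compared with adult GV oocytes to follow these transcripts through maturation in vivo. After normalization Hprt, Orc6 and both Il7 probe sets rose, Cdc6 fell, and neither Plat nor Tex19.1 passed the test. These were 5 of 7 tested probe sets, against 26.8% of all probe sets tested in this comparison. By direction, 4 rose and 1 fell, against backgrounds of 15.7% higher and 11.1% lower. Maturation in vitro gave the same calls for the same 5 probe sets, against 27.7% of all probe sets (16.0% higher and 11.7% lower). Arrays of the groups did not overlap for 5 of 7 in vivo and for 7 of 7 in vitro, against 55.3% and 66.6% of all probe sets. The comparisons share their GV arrays, so the second is no independent repeat of the first. Because the genes were chosen with earlier results of these data known, these shares describe them and do not show enrichment.

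The rises depended on how arrays were scaled, whereas the fall of Cdc6 was called under every setting tried. With the intensities as deposited, Cdc6 was the only one of the 7 called in either comparison. The median difference of the tested probe sets was 0.24 in vivo and 0.13 in vitro after normalization, and -0.98 and -1.94 in the deposited values. Over all tested probe sets the split of higher to lower calls was 3542 to 2495 in vivo and 3607 to 2641 in vitro after normalization. As deposited it was 23 to 3481 and 11 to 6224. With arrays scaled to a common median it was 1205 to 3876 and 1315 to 4468. The rises below are thus rises relative to the bulk of probe sets on the array.

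**Figure D1:**
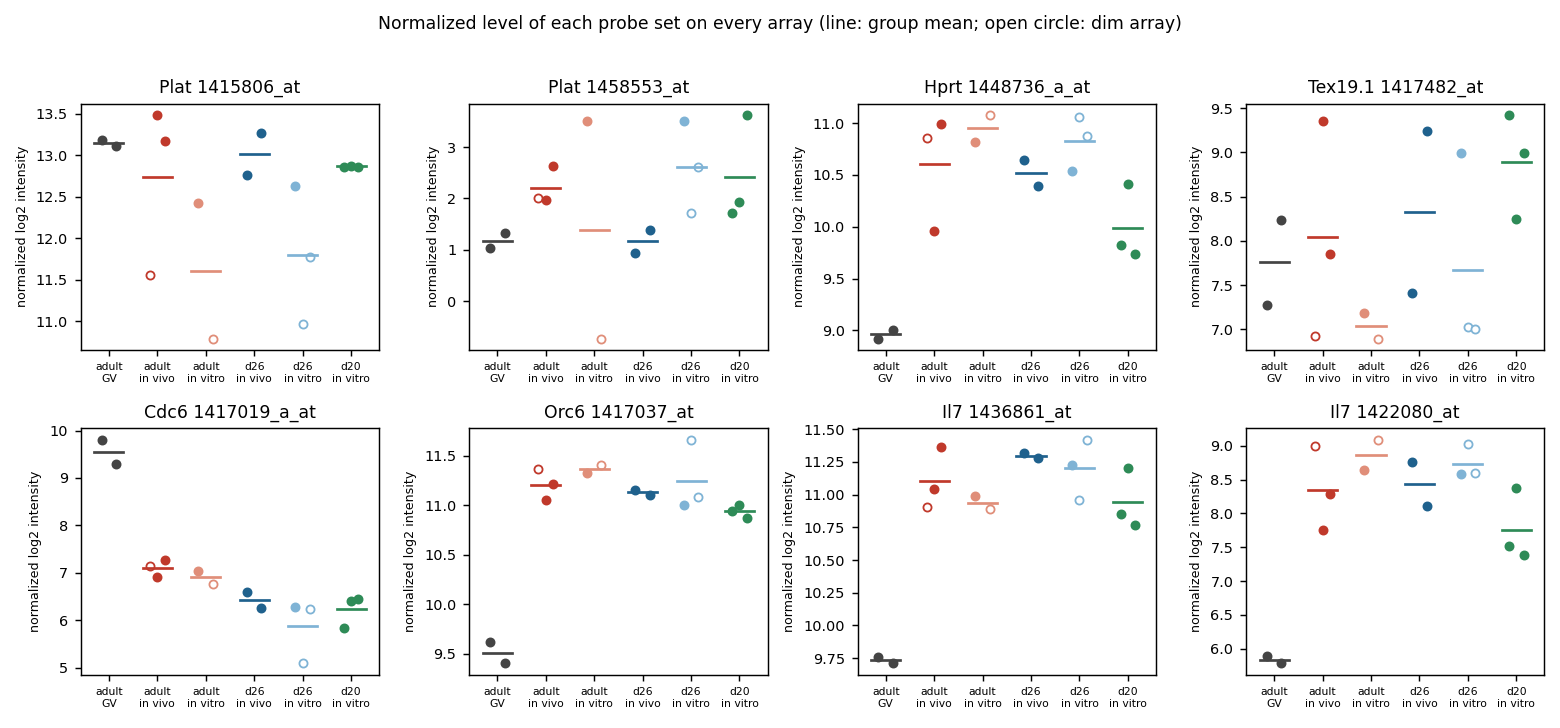
Quantile-normalized log2 intensity (y axis) of each of the 8 probe sets on every array, by group (x axis). Points are arrays, open circles are the 4 dim arrays and lines are group means. Both GV arrays lie below all 13 MII arrays for Hprt, Orc6 and both Il7 probe sets and above them for Cdc6.

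Of the licensing factors, Orc6 rose. Orc6 is the smallest subunit of the origin recognition complex, the assembly that marks origins. Its probe set 1417037_at read 9.62 and 9.40 on the GV arrays. The in vivo matured adult arrays read 11.37, 11.05 and 11.21, and the in vitro matured ones 11.33 and 11.41. Every MII array lay above both GV arrays, at every age and after either route of maturation. The difference was 1.70 in vivo (SE 0.23, adjusted p = 9.42e-05) and 1.86 in vitro (SE 0.25, adjusted p = 0.00011). In rank, Orc6 moved from the 94.1 to 94.7 percentile of its array at GV to the 97.5 to 98.7 percentile at MII.

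The deposited intensities of Orc6 showed less. They were 1826 and 1464 at GV. In vivo at MII they were 1317, 3270 and 3911, and in vitro 2423 and 1221, so the groups overlapped through the dim arrays. The unnormalized difference was 0.65 in vivo (adjusted p = 0.592) and 0.07 in vitro (adjusted p = 0.941). Set against the median probe set of the same deposited values, it was 1.63 in vivo and 2.02 in vitro, close to the 1.46 and 1.73 found after normalization.

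Cdc6 went the other way. Cdc6 is the ATPase that joins the origin recognition complex and helps load the helicase. Its probe set 1417019_a_at read 9.81 and 9.29 at GV. It read 7.14, 6.90 and 7.28 on the in vivo adult arrays and 7.05 and 6.77 on the in vitro ones. The highest MII array of any group read 7.28. Cdc6 fell by 2.44 in vivo (SE 0.42, adjusted p = 0.000607) and by 2.64 in vitro (SE 0.46, adjusted p = 0.000671).

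For Cdc6 the deposited intensities separated the stages too. They were 2038 and 1400 at GV and ran from 13.8 to 237 over the 13 MII arrays. As deposited, Cdc6 fell by 3.69 in vivo (adjusted p = 0.00984) and by 4.87 in vitro (adjusted p = 0.00204). Its rank in the array was between the 93.8 and 95.2 percentile at GV and between the 72.6 and 86.6 percentile at MII.

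Hprt rose by a similar amount to Orc6 with a wider spread. The probe set 1448736_a_at read 8.92 and 9.01 at GV. In vivo matured adult oocytes read 10.86, 9.96 and 10.99, and in vitro matured ones 10.82 and 11.08. The groups did not overlap. The difference was 1.64 in vivo (SE 0.32, adjusted p = 0.00133) and 1.98 in vitro (SE 0.35, adjusted p = 0.000671).

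On the deposited scale Hprt was 1268 and 1230 at GV, 851, 1599 and 3350 in vivo, and 1697 and 907 in vitro. The 2 dim arrays were the ones below GV. The deposited difference was 0.41 in vivo (adjusted p = 0.786) and -0.01 in vitro (adjusted p = 0.993), while the median probe set fell. Less that median, Hprt stood 1.39 above in vivo and 1.93 above in vitro, compared with 1.40 and 1.85 after normalization.

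Il7 was measured by a pair of probe sets that moved in the same direction by different amounts. The brighter one, 1436861_at, read 9.76 and 9.71 at GV, 10.91, 11.04 and 11.37 in vivo, and 10.99 and 10.89 in vitro. It rose by 1.37 in vivo (SE 0.22, adjusted p = 0.000432) and by 1.20 in vitro (SE 0.25, adjusted p = 0.00201). The dimmer one, 1422080_at, read 5.89 and 5.79 at GV, 8.99, 7.76 and 8.29 in vivo, and 8.64 and 9.09 in vitro. It rose by 2.51 in vivo (SE 0.41, adjusted p = 0.000425) and by 3.03 in vitro (SE 0.45, adjusted p = 0.000229). For both, all MII arrays were above both GV arrays.

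The call for Il7 1436861_at did not hold with another scaling. With arrays scaled to a common median its difference was 1.10 in vivo (adjusted p = 0.0507) and 0.81 in vitro (adjusted p = 0.178). Il7 1422080_at kept its call there but shrank to 1.38 and 1.59. As deposited, 1436861_at read 1979 and 1711 at GV, 889, 3240 and 4273 in vivo, and 1932 and 762 in vitro, with differences of 0.33 and -0.60 (adjusted p = 0.854 and 0.564). The deposited intensities of 1422080_at were 222 and 198 at GV, 182, 354 and 505 in vivo, and 343 and 163 in vitro, with differences of 0.61 and 0.17 (adjusted p = 0.707 and 0.88). Less the median probe set, 1422080_at stood 1.59 above in vivo and 2.12 above in vitro as deposited, against 2.27 and 2.90 after normalization. For 1436861_at these were 1.31 and 1.34, against 1.13 and 1.07.

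**Figure D2:**
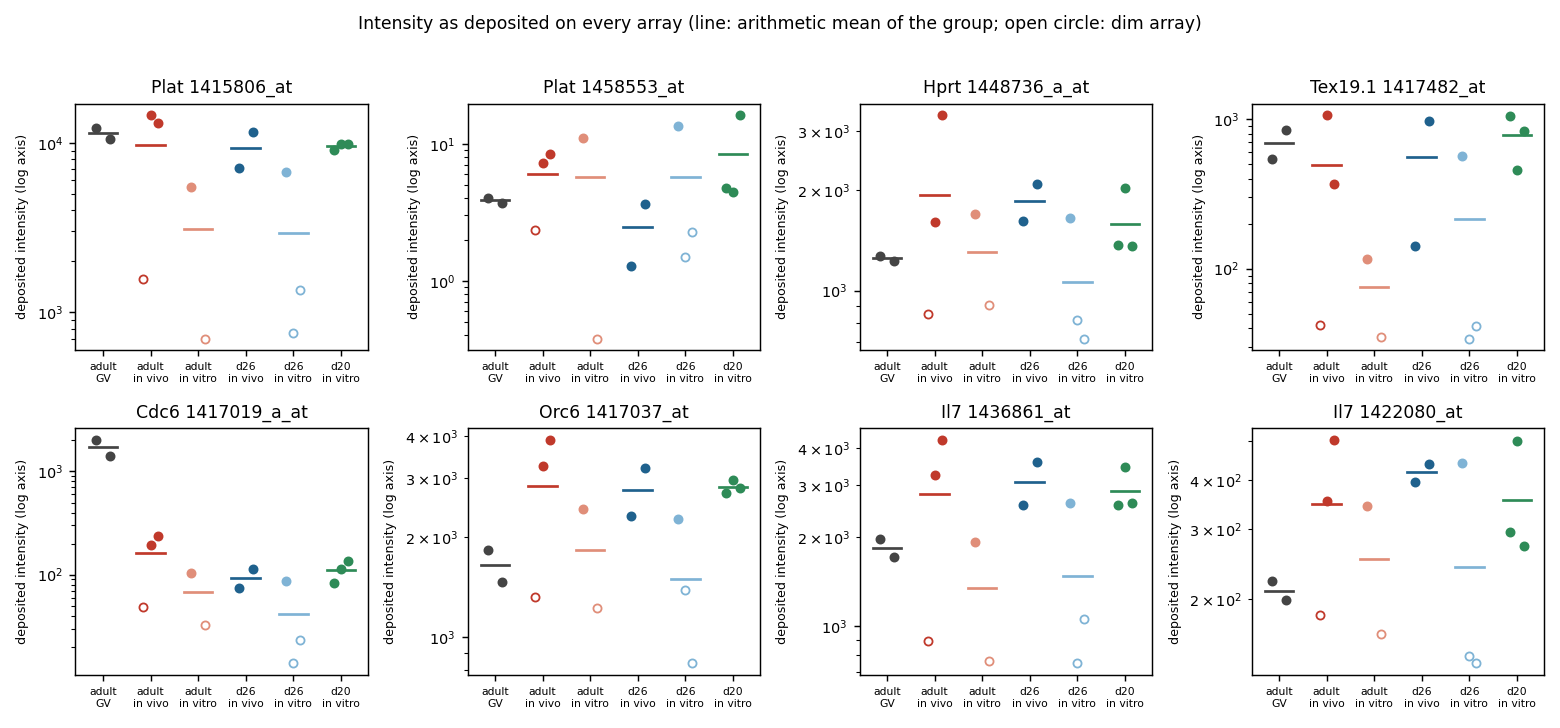
Intensity as deposited (y axis, log scale) of the same 8 probe sets by group (x axis). Lines are arithmetic group means and open circles the 4 dim arrays. Only Cdc6 keeps GV (1400 and 2038) apart from all 13 MII arrays (13.8 to 237).

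Plat was among the brightest probe sets at both stages. The probe set 1415806_at read 13.18 and 13.11 at GV, above the 99.8 percentile of both arrays. In vivo matured adult oocytes read 11.56, 13.49 and 13.17, so 1 array lay above both GV arrays, 1 between them and the dim one below. The difference was -0.41 (95% interval -1.59 to 0.78, adjusted p = 0.672), and without the 4 dim arrays it was 0.16 (adjusted p = 0.472). Less the median probe set, Plat stood at -0.65 after normalization and at 0.22 as deposited, so its sign turned.

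After in vitro maturation Plat read 12.43 and 10.79, both below GV. The difference of -1.54 (SE 0.61, adjusted p = 0.0746) did not pass. Of the 2 in vitro arrays the dim one set its size. Without adult in vitro replicate 2 the difference was -0.70 (adjusted p = 0.533), and without replicate 1 it was -2.35 and was called (adjusted p = 0.0203). Leaving out all 4 dim arrays gave -0.63, also called (adjusted p = 0.0285). Less the median probe set, Plat stood at -1.67 in vitro after normalization and at -0.59 as deposited. The second Plat probe set, 1458553_at, read from -0.72 to 3.63 over the 15 arrays, mostly below the filter level.

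Tex19.1 passed the test under neither route. Its probe set 1417482_at read 7.28 and 8.24 at GV, 6.92, 9.36 and 7.86 in vivo, and 7.19 and 6.90 in vitro. The difference was 0.29 in vivo (95% interval -1.31 to 1.88, adjusted p = 0.839) and -0.72 in vitro (95% interval -2.46 to 1.03, adjusted p = 0.58). The in vivo interval takes in a rise of the size seen for Hprt. Both in vitro arrays lay below both GV arrays, while the in vivo ones overlapped them. The deposited intensities were 540 and 845 at GV and 116 and 34.7 in vitro, a difference of -3.41 (adjusted p = 0.0839) beside a fall of 1.94 in the median probe set. Over all MII arrays they ran from 34 to 1069. Less the median probe set, Tex19.1 stood at 0.05 in vivo and -0.85 in vitro after normalization. As deposited it stood at -0.43 and -1.47.

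**Figure D3:**
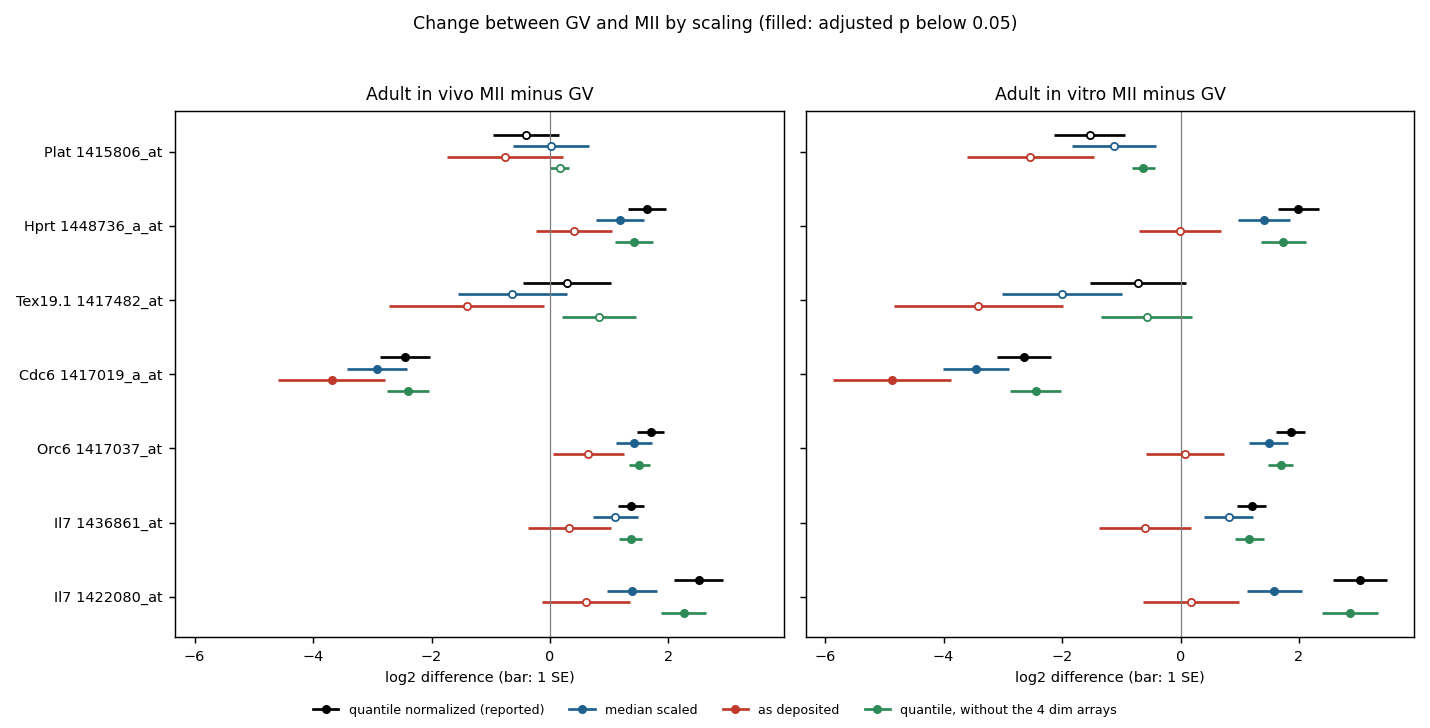
Log2 difference between adult MII and GV (x axis, bars 1 SE) for the 7 tested probe sets (y axis) after maturation in vivo (left) and in vitro (right), under 4 settings. Filled points have an adjusted p below 0.05. Cdc6 is filled throughout, while the rises of Hprt, Orc6 and Il7 are open with the deposited values.

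A ratio between probe sets of the same array does not depend on the array's scale, so each gene was also set against Cdc6 on the deposited values. This ratio was chosen after the values had been seen and is given without a test. Probe sets differ in how strongly they bind, so the ratio itself says nothing of relative abundance, and its movement between stages shows unequal change only. The log2 ratio of Orc6 to Cdc6 was -0.05 ± 0.16 at GV (SD, n = 2), 4.29 ± 0.41 in the adult in vivo group (SD, n = 3) and 4.90 ± 0.50 in the adult in vitro group (SD, n = 2). For Hprt it went from -0.44 ± 0.35 to 3.66 ± 0.57 and 4.42 ± 0.56. The licensing factors Orc6 and Cdc6 thus moved apart by 4.34 in vivo and 4.94 in vitro.

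For Il7 the ratio went from 0.12 ± 0.23 to 4.14 ± 0.08 and 4.39 ± 0.24 with 1436861_at. With 1422080_at it went from -3.01 ± 0.27 to 1.29 ± 0.55 and 2.03 ± 0.44. Plat went from 2.75 ± 0.22 to 5.68 ± 0.61 in vivo and 5.08 ± 0.91 in vitro, and Tex19.1 from -1.32 ± 0.84 to 0.96 ± 1.35 and 0.13 ± 0.04. Each of these 6 probe sets was higher relative to Cdc6 on all 13 MII arrays than on both GV arrays, as were 67.0% of all other tested probe sets. The reference was itself the member that fell, so this count says nothing particular to the 6.

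**Figure D4:**
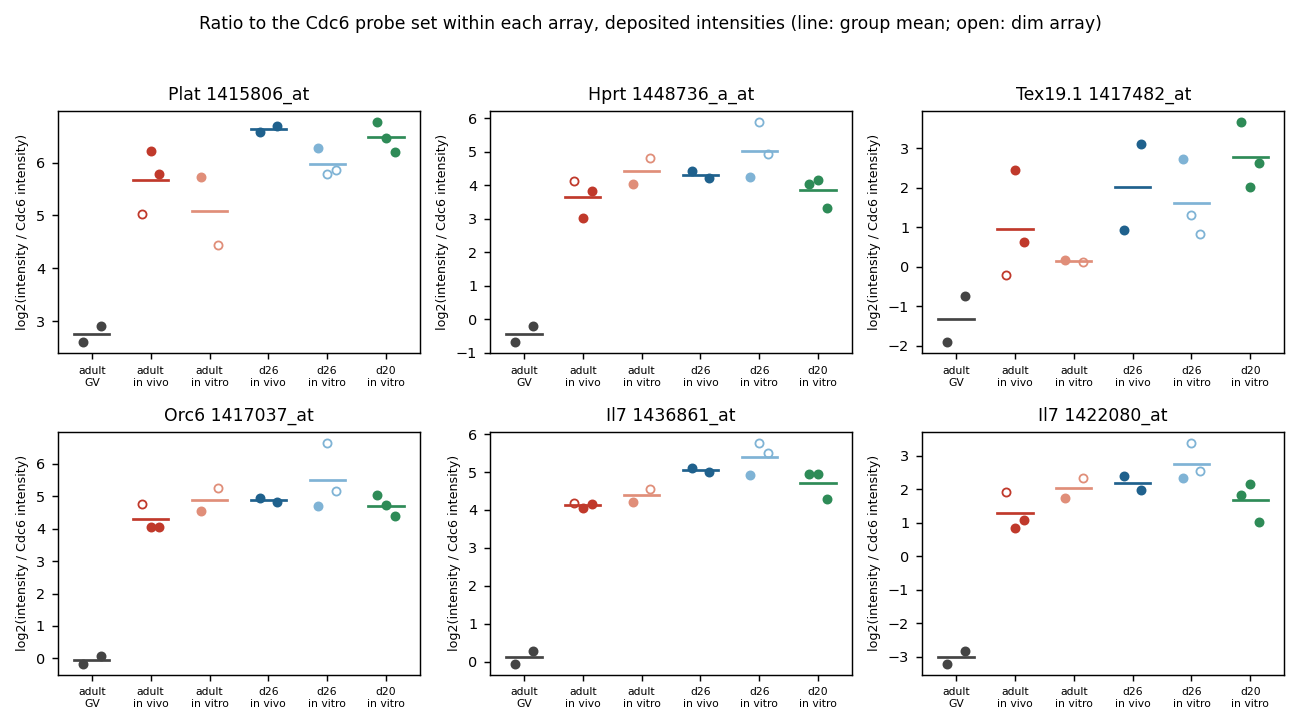
Log2 ratio of the deposited intensity of 6 probe sets to that of Cdc6 on the same array (y axis) by group (x axis). Points are arrays, open circles dim arrays and lines group means. The GV arrays are lowest in every panel, and the ratio of Orc6 to Cdc6 lies between 4.04 and 6.64 on the MII arrays.

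The stage pattern held over all ages and both routes. Of the 7 tested probe sets, 4 were higher on all 13 MII arrays than on both GV arrays (Hprt, Orc6 and both of Il7), against 18.0% of all probe sets tested. Cdc6 was lower on all 13, against 15.8%. On the deposited values only Cdc6 kept this separation. There were no GV oocytes at d26 or d20, so these younger MII groups were set against adult GV oocytes, and age and stage are not separated there.

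The order of the MII group means was not the same for all probe sets. For Orc6, GV was lowest at 9.51 ± 0.15 (SD, n = 2), followed by d20 in vitro at 10.94 ± 0.06 (SD, n = 3). The other 4 groups lay within 11.13 to 11.37, and no neighbours in that order differed without overlap among them. Hprt had GV lowest at 8.97 ± 0.06 (SD, n = 2), then d20 in vitro at 9.99 ± 0.36 (SD, n = 3), then 10.52 to 10.95 in the rest, where all neighbours overlapped.

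Il7 1422080_at showed the same order at the bottom. Its mean was 5.84 ± 0.08 at GV (SD, n = 2) and 7.76 ± 0.53 in d20 in vitro oocytes (SD, n = 3), with 8.35 to 8.87 in the rest. Il7 1436861_at had GV at 9.74 ± 0.04 (SD, n = 2) and all 5 MII groups between 10.94 and 11.30, with overlap between each pair of neighbours.

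Cdc6 was highest at GV, 9.55 ± 0.37 (SD, n = 2). Adult MII oocytes followed at 7.11 ± 0.19 after maturation in vivo (SD, n = 3), then 6.91 ± 0.19 after maturation in vitro (SD, n = 2). The 3 younger groups lay lower, at 6.42 ± 0.24 for d26 in vivo (SD, n = 2), 6.23 ± 0.34 for d20 in vitro (SD, n = 3) and 5.87 ± 0.67 for d26 in vitro (SD, n = 3). The deposited log2 means did not keep this order by age. There d20 in vitro (6.75) and d26 in vivo (6.52) lay above adult in vitro (5.85), while adult in vivo was at 7.03 and d26 in vitro at 4.93. After normalization the adult in vitro and d26 in vivo arrays, neighbours in the order of means, did not overlap. Their deposited intensities did, at 104 and 32.2 against 75.0 and 112. These groups differ in both age and route and were not tested against each other. The share of all probe sets without overlap was not counted for them.

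Plat ran from 13.15 ± 0.05 at GV (SD, n = 2) through 13.02 ± 0.35 in d26 in vivo (SD, n = 2), 12.87 ± 0.01 in d20 in vitro (SD, n = 3) and 12.74 ± 1.03 in adult in vivo (SD, n = 3). It was lowest in d26 in vitro, 11.79 ± 0.83 (SD, n = 3), and adult in vitro, 11.61 ± 1.16 (SD, n = 2), in which 2 of 3 and 1 of 2 arrays were dim. Tex19.1 was highest in d20 in vitro oocytes at 8.89 ± 0.59 (SD, n = 3) and lowest in adult in vitro at 7.04 ± 0.21 (SD, n = 2). All neighbours overlapped for both genes.

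The study next asked whether oocytes matured in vitro differ from those matured in vivo. In adults none of the 7 probe sets was called, against 0.00444% of all probe sets (1 probe set, with 1801 at an unadjusted p below 0.05). That background rests on few arrays: without adult in vitro replicate 1, which leaves the dim array alone in its group, 406 probe sets were higher and 5 lower in vivo. Without the 4 dim arrays it was 104 and 2, and still none of the 7 was called. The in vivo minus in vitro difference was -0.16 for Orc6 (95% interval -0.64 to 0.32), 0.20 for Cdc6 (-0.70 to 1.10) and -0.34 for Hprt (-1.02 to 0.33). For Il7 it was 0.17 (-0.32 to 0.65) with 1436861_at and -0.52 (-1.40 to 0.36) with 1422080_at. The interval for Orc6 leaves room for a difference of 0.64, well under its change from GV. Plat was 1.13 higher in vivo (95% interval -0.05 to 2.31, adjusted p = 0.63) and Tex19.1 1.01 higher (-0.59 to 2.60, adjusted p = 0.704), neither passing.

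At d26 none was called either, against 0.0400% (9 probe sets, with 1531 at an unadjusted p below 0.05). Over all probe sets there were 85 higher and 0 lower without the 4 dim arrays, 20 and 0 without d26 in vitro replicate 2, 2 and 0 without replicate 3, and 0 without either d26 in vivo array. Plat read 12.77 and 13.27 after in vivo maturation and 12.63, 10.97 and 11.78 after in vitro maturation, so the arrays did not overlap. Of all tested probe sets, 11.1% were higher without overlap in this comparison. The Plat difference was 1.22 (95% interval 0.04 to 2.41, adjusted p = 0.714), and 2 of the 3 in vitro arrays were dim. The other 6 differences lay between -0.30 and 0.65.

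The in vivo to in vitro difference was compared between d26 and adults with an interaction term. No probe set in the whole table was called by limma, the adjusted p of each of the 7 was 0.99988, and 840 of all tested had an unadjusted p below 0.05. Leaving out adult in vitro replicate 1 gave 25 lower calls over all probe sets, none of them among the 7. The interaction was 0.04 for Orc6 (95% interval -0.64 to 0.72), 0.36 for Cdc6 (-0.91 to 1.63) and 0.09 for Plat (-1.58 to 1.76).

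Age was compared among in vitro matured oocytes. Between d20 and adults none of the 7 was called, against 0.0222% of all probe sets (5 probe sets, with 3971 at an unadjusted p below 0.05). Without adult in vitro replicate 1 there were 679 higher and 83 lower calls over all probe sets, and without the 4 dim arrays 290 and 35, with none of the 7 called in either case. Leaving out a d20 array gave 1 to 3 higher and 1 lower. Hprt read 9.83, 10.41 and 9.74 at d20, below both adult in vitro arrays, a difference of -0.96 (95% interval -1.63 to -0.28, adjusted p = 0.186). Il7 1422080_at read 7.52, 8.37 and 7.39, likewise below, a difference of -1.11 (-1.99 to -0.23, adjusted p = 0.215). Both remained above GV on every array. The direction did not hold in the deposited values. There Hprt was 1366, 2024 and 1356 at d20, overlapping the 1697 and 907 of adults (0.32, adjusted p = 0.738), and Il7 1422080_at was 296, 502 and 272 against 343 and 163 (0.53, adjusted p = 0.627).

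Tex19.1 and Plat leaned the other way at d20. Tex19.1 read 9.42, 8.25 and 8.99, above both adult in vitro arrays, a difference of 1.85 (95% interval 0.25 to 3.44, adjusted p = 0.239). Plat read 12.87 on all 3 d20 arrays, a difference of 1.26 (0.08 to 2.44, adjusted p = 0.262). Both were also higher at d20 without overlap as deposited, by 3.54 for Tex19.1 (adjusted p = 0.199) and 2.30 for Plat (adjusted p = 0.201). Orc6 differed by -0.43 (-0.91 to 0.05), Cdc6 by -0.68 (-1.58 to 0.22) and Il7 1436861_at by 0.00 (-0.48 to 0.48). For 6 of the 7 the d20 and adult arrays did not overlap, against 41.5% of all tested probe sets, and none passed the adjusted test. As deposited Cdc6 overlapped (0.90), and Orc6 separated in the opposite direction, at 2705, 2964 and 2802 against 2423 and 1221 (0.71, adjusted p = 0.422), while the median probe set was 1.32 higher at d20. Of the 2 adult in vitro arrays 1 was dim.

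Between d26 and adults none was called, against 0.00444% (1 probe set, with 1654 at an unadjusted p below 0.05). Over all probe sets there were 303 higher and 2 lower calls without adult in vitro replicate 1, 58 and 25 without the 4 dim arrays, and 6 and 1 without d26 in vitro replicate 2. Cdc6 was lower at d26, at 6.28, 5.09 and 6.23, a difference of -1.04 (95% interval -1.94 to -0.14, adjusted p = 0.623), whereas the deposited arrays overlapped (-0.92). The other 6 lay between -0.13 and 0.63. Between d20 and d26 limma called no probe set in the whole table, with 2581 at an unadjusted p below 0.05. It called 26 higher without d26 in vitro replicate 1, and 32 higher and 1 lower without the 4 dim arrays. In this comparison Plat differed by 1.07 (0.02 to 2.13), Hprt by -0.83 (-1.43 to -0.23) and Il7 1422080_at by -0.97 (-1.76 to -0.19), with adjusted p = 0.432, 0.414 and 0.414. As deposited Hprt and Il7 1422080_at turned to 0.65 and 0.74.

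**Figure D5:**
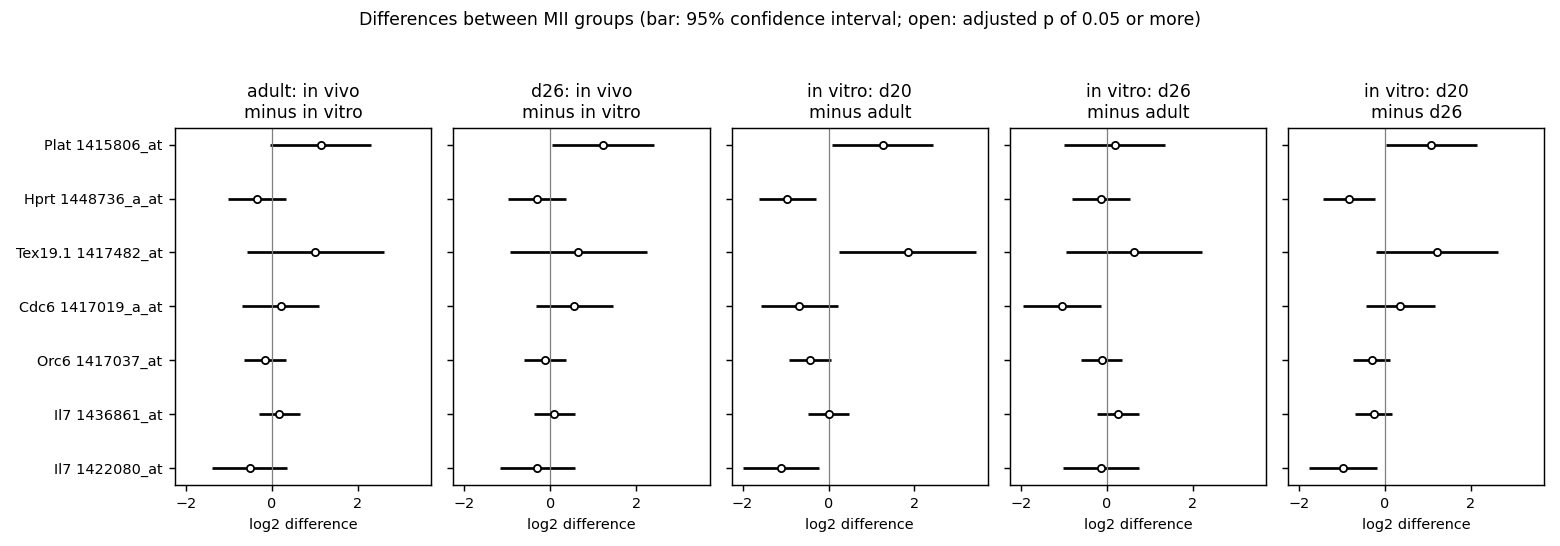
Log2 difference between MII groups (x axis, bars 95% confidence intervals) for the 7 tested probe sets (y axis), in 5 comparisons of maturation route and age. No point has an adjusted p below 0.05, and the intervals of Tex19.1 and Plat are the widest.

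The apparatus that controls poly(A) tails changed in both directions between GV and MII. Of 39 listed genes 36 were tested, and 9 rose and 11 fell in vivo, against 18.3% of genes higher and 12.3% lower. In vitro 9 rose and 12 fell, against 18.4% and 12.9%. The median difference of the list was 0.29 in vivo and -0.29 in vitro, compared with 0.26 and 0.13 over all genes. Cpeb1, which binds the cytoplasmic polyadenylation element, fell by 3.57 in vivo (adjusted p = 0.000126) and fell by 3.91 in vitro (adjusted p = 0.000143). Pabpc1l, the embryonic poly(A)-binding protein, fell by 1.30 and 2.13 (adjusted p = 0.0097 and 0.000658). Tent2, a cytoplasmic poly(A) polymerase, rose by 1.98 and 2.10 (adjusted p = 3.46e-05 and 5.39e-05).

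Dazl, an RNA-binding protein that activates translation of stored messages, differed by 0.63 in vivo (adjusted p = 0.0519) and 0.55 in vitro (adjusted p = 0.12), neither passing. Without the 4 dim arrays Dazl was called higher in vivo (0.71, adjusted p = 0.0107) and had 0.63 in vitro. In that setting the list had 13 higher and 12 lower calls in vivo. As deposited the list had 0 higher and 10 lower calls in vivo and 0 and 18 in vitro. Cpeb1 and Pabpc1l fell there too, by 4.41 and 2.84 in vivo, whereas Tent2 had differences of 0.79 and 0.18 that did not pass.

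Other maternal messages known to be recruited at maturation were read from a list of 21 genes, of which 20 were tested. This list too was drawn up with earlier results of these data known, so its counts are descriptive. In vivo 8 rose (Cdc20, Cnot6l, Cnot7, Dcp2, Fbxo43, Mad2l1, Mapk6 and Wee2) and 0 fell. In vitro the same genes except Cnot7 rose, 7 in all, and 0 fell. Over all genes 18.3% were higher and 12.3% lower in vivo, and 18.4% and 12.9% in vitro. The list medians were 0.55 and 0.29, against 0.26 and 0.13 over all genes. With arrays scaled to a common median 8 rose and 0 fell in each, and as deposited 0 changed in either direction, with medians of -0.06 and -0.69. Without the 4 dim arrays 13 rose and 0 fell in vivo, where 5259 of all 22519 tested probe sets were higher. Fbxo43, also called Emi2, which holds the egg at metaphase II, rose by 2.70 in vivo and 3.37 in vitro (adjusted p = 0.00179 and 0.000726). Wee2, an oocyte kinase that inhibits Cdk1, rose by 1.32 and 1.49 (adjusted p = 0.00208 and 0.00168). Cdc20, the activator of the anaphase-promoting complex, rose by 1.26 and 1.25 (adjusted p = 0.000701 and 0.0014).

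Some well-studied members of that list did not pass. Mos, the kinase that starts the MAP kinase cascade in oocytes, had differences of -2.00 (adjusted p = 0.43) and -4.29 (adjusted p = 0.0887). Btg4, which brings deadenylase to maternal messages, had -0.11 and -0.47, and Tpx2, a spindle assembly factor, 0.23 and -0.39. Dcp1a, a decapping cofactor, had 0.24 and 0.17.

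Around Cdc6 and Orc6, the licensing list was tested in full, 20 of 20 genes. In vivo 3 rose (Cdc7, Gmnn and Mcmbp) and 2 fell (Mcm5 and Orc5). In vitro the same 3 rose, and Cdt1, Mcm3, Mcm5 and Mcm10 fell. Over all genes 18.3% were higher and 12.3% lower in vivo, and 18.4% and 12.9% in vitro, so 3 of 20 higher is not above the background under either route. Gmnn, geminin, the inhibitor of Cdt1, rose by 1.81 in vivo and 2.01 in vitro (adjusted p = 1.6e-05 and 1.73e-05). Mcm5, a subunit of the helicase, fell by 3.54 and 3.80 (adjusted p = 7.19e-06 and 9.65e-06).

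Mcm3, another helicase subunit, had -2.10 in vivo (adjusted p = 0.0584) and fell by 2.99 in vitro (adjusted p = 0.0158). Cdt1, the helicase loader that works with Cdc6, had -0.53 (adjusted p = 0.133) and fell by 0.90 in vitro (adjusted p = 0.0205). Of the other origin recognition subunits, Orc1 had 0.62 and -0.20 and Orc4 had -0.19 and -0.39, none of these passing. Without the 4 dim arrays Orc1 was called higher in vivo (1.23, adjusted p = 0.00799) and had 0.49 in vitro. In that setting 7 genes of the list rose in vivo and 6 fell, with Orc2 and Orc5 among the 6. Of all 22519 tested probe sets, 5259 were higher and 3483 lower there, so these counts changed with the dim arrays. The in vivo call of Orc5 was lost with median scaling (-0.91, adjusted p = 0.309) and as deposited (-1.68, adjusted p = 0.204). Orc2 was called lower in vivo with median scaling (-1.51, adjusted p = 0.0182). As deposited the list had 0 higher and 3 lower calls in vivo (Mcm3, Mcm5 and Orc2) and 0 and 7 in vitro, with Orc2 and Orc4 among the 7.

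The other lists held few calls. In plasminogen activation 5 of 12 genes were tested, with 0 calls in vivo and Anxa2, a plasminogen receptor subunit, lower in vitro (-2.31, adjusted p = 0.0268). Plau, the urokinase-type activator, and Serpinb2 lay below the filter. In purine salvage 2 of 12 rose (Ampd3 and Pnp) and Ada fell in vivo, and Ampd3 rose and Ada fell in vitro, counts not above the same background shares. Pnp, purine nucleoside phosphorylase, rose by 1.55 in vivo (adjusted p = 0.00213) and had 0.92 in vitro (adjusted p = 0.0653). Aprt, the adenine counterpart of Hprt, had 0.93 and 0.90 (adjusted p = 0.104 and 0.148), and Adk, adenosine kinase, -0.19 and 0.74. As deposited no gene of either list was called higher. Ada, Ampd2 and Anxa2 were called lower under both routes, and Nt5c2 was called lower in vitro.

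Among 8 genes of Il7 reception and signalling 6 were tested, with 0 calls in vivo and 1 in vitro. The one was Crlf2, a chain of the receptor for a related cytokine (1.34, adjusted p = 0.0413), whose sign turned under median scaling (-0.17). Il7r, the receptor's alpha chain, had 0.82 and 1.63 (adjusted p = 0.484 and 0.157) from a GV mean of 3.15, just above the filter level. Of 8 listed genes around Tex19.1 (its partners, piRNA pathway factors and its paralog), 6 were tested and 3 fell under both routes, against 12.3% and 12.9% of genes lower. The same 3 were called lower in the deposited values, where 3481 and 6224 of all 22519 probe sets were lower. These were Mael, a piRNA pathway factor (-4.43 and -3.45), and Ube2a (-3.03 and -3.17) and Ube2b (-1.90 and -2.19), the ubiquitin-conjugating enzymes used by Ubr2. Ubr2 itself had 0.79 and 0.77 and the paralog Tex19.2 -0.62 and 0.40, none passing. Without the 4 dim arrays Ubr2 (1.47, adjusted p = 0.0129) and Piwil1 (1.48, adjusted p = 0.0048) were called higher in vivo. Mael, Ube2a and Ube2b stayed lower there, and 5259 of all 22519 probe sets were higher. In vitro Ubr2 had 1.59 and Piwil1 1.33 in that setting.

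The genes most like each member were found by Pearson correlation of normalized level over the 15 arrays, each gene by its brightest tested probe set. Such r values are descriptions, since arrays share stage and brightness. Orc6 was most like Sgo2a (r = 0.989), Rexo2 (r = 0.989) and Pggt1b (r = 0.981). Hprt was most like Ostc (r = 0.98), Hmgcll1 (r = 0.98) and Cmc2 (r = 0.977), and Il7 like Copg2 (r = 0.981), Ncoa6 (r = 0.979) and Sun1 (r = 0.975). Cdc6 was most like Atp6v1d (r = 0.966), Spcs1 (r = 0.953) and Cpsf3 (r = 0.952).

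Plat was most like Marchf6 (r = 0.963), Scmh1 (r = 0.961) and Dmwd (r = 0.957), and Tex19.1 like Actn4 (r = 0.977), Fbxo42 (r = 0.966) and Ubac2 (r = 0.966). Among the 6 genes themselves, Hprt and Orc6 had r = 0.904 and Orc6 and Il7 r = 0.85, while Cdc6 and Orc6 had r = -0.848. Plat and Tex19.1 had r = 0.688. On deposited log2 values all 15 pairs were positive, from 0.324 for Cdc6 and Orc6 to 0.923 for Plat and Il7, over arrays that share one brightness per array.

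Markers of the oocyte were present throughout: of 14 listed genes 13 had a probe set of a single symbol, and all 13 stood above the filter level on every array. Their summed normalized intensity moved with stage, from 75777 to 90659 at GV to 35472 to 39026 in adult in vivo and 29722 to 39137 in adult in vitro oocytes. Markers of other cells were read as the summed normalized intensity of each list, and in pooled samples fewer cells of a type and less RNA per cell cannot be told apart. For 12 leukocyte genes the sum was 101 to 108 at GV, 373 to 635 in adult in vivo oocytes and 173 to 190 in adult in vitro oocytes, with 5 to 6, 9 to 11 and 5 to 6 genes above the filter level. As deposited the leukocyte sum was 201 to 226 at GV, 262 to 599 in vivo and 76.7 to 148 in vitro.

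For 15 of 16 granulosa and cumulus genes the sum was 257 to 277 at GV, 396 to 496 in adult in vivo and 521 to 597 in adult in vitro oocytes. In the deposited values the order turned, with 725 to 735 at GV against 214 to 698 and 201 to 434. For 9 oviduct genes the normalized sum was 111 to 118 at GV, 188 to 512 in vivo and 149 to 153 in vitro. As deposited it was 297 to 323 at GV, 179 to 781 in vivo and 55.4 to 133 in vitro. There GV overlapped the in vivo group and lay above the in vitro one. The part of these marker sums in the changes of the 6 genes was not tested.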

How the data were processed

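Intensities were deposited by the authors for 45101 probe sets on 15 arrays, on a linear scale from 0.0425 to 21563, computed by MAS5 according to the submitters' processing notes. The scaling target is not given in the sources used here. Array medians ran from 5.09 to 25.3. The 64 control probe sets were dropped, and log2 values were quantile normalized. limma 3.58.1 under R 4.3.3 fitted 1 coefficient for each of the 6 groups (intensity trend, 9 residual degrees of freedom) to the 22519 probe sets in the upper 50% by mean, with Benjamini-Hochberg adjustment within each comparison. Only the limma fit was tried on simulated data, made by adding noise to the means of normalized and filtered probe sets. That simulation did not test the normalization or the effect of dim arrays. The number of arrays limits the precision. No arrays were duplicates: of 105 pairs, the closest shared 0.00222% of its values.

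Symbols came from the platform annotation: 34958 probe sets had 1, 932 had several and 9211 had none, and 34754 were matched by gene identifier. Genes were represented by their brightest tested probe set (12028 genes). The 6 genes, the gene lists and the rule for named genes were chosen with earlier results of these data known. The rule takes all probe sets of the 6 genes and the 3 genes most correlated with each. From the lists it takes a preset few, plus called genes of lists with few calls. In the recruited and licensing lists called genes were named beyond that limit, and Fbxo43, Wee2 and Cdc20 were singled out outside the rule. Alternatives were the values as deposited, median scaling, no filter, a pseudocount of 16, leaving out the 4 dim arrays and fitting the compared arrays alone. Each array of the compared groups was also left out in turn.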

Additional observations from a re-analysis of the deposited data

How the results depend on the processing

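Of the 8 comparisons, the count of called probe sets of the 6 genes changed most with the deposited values, from 5 to 1 in vivo and from 5 to 1 in vitro against GV. There the in vitro differences of Hprt (-0.0095) and Il7 1436861_at (-0.60) turned sign. Median scaling gave 4 and 4, and leaving out the 4 dim arrays 5 and 6. Arrays were left out in turn from the compared groups only. Leaving out each adult in vivo array gave 5 in vivo, and the remaining cases against GV left 1 array in a group. In the other 6 comparisons the count was 0 under every setting. Of 105 alternative values for the 10 called differences, 95 stayed called in the same direction, 8 were lost as deposited and 2 with median scaling. Of 544 values called under neither setting, 71 changed sign. Over all probe sets, leaving out GV replicate 2 lowered the split of higher to lower calls from 3542 and 2495 to 1878 and 1420 in vivo, and from 3607 and 2641 to 2233 and 1534 in vitro. It was 5259 to 3483 and 4449 to 3506 without the dim arrays. The cause of these shifts was not tested. No paired analysis was possible because the numbers in the sample titles are unique to an array and the replicate numbers only follow the order of the records. With 2 GV arrays, both the brightest, brightness and stage cannot be told apart in the deposited values.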
